A study of Homo sapiens with 8 samples.

Results

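RNA polymerase II (RNAPII) chromatin occupancy was mapped in MDA-MB-453 cells that had received vehicle only for 4 h, without drug. MDA-MB-453 is an established human triple negative breast cancer (TNBC) line of the luminal-like subgroup, and it was grown in high-glucose DMEM with fetal bovine serum. Chromatin from 2 vehicle cultures, taken from independent passages and named Veh 1 and Veh 2 here, was precipitated with 10 µg of antibody CTD4H8, which binds the C-terminal domain (CTD) of the largest RNAPII subunit, and sequenced as 150 bp paired-end reads, at least 60000000 in each sample. Both cultures were of 1 line, so that the values describe that line and its spread between passages. In a bulk culture, a site occupied in few cells and a site weakly occupied in all cells cannot be told apart. The drug-treated libraries of the same series were not compared here.

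The authors called peaks in each library against its own chromatin input. A region is a stretch of the genome in which the ChIP signal exceeded the local background, and a region that overlapped a region of the other vehicle list by at least 1 bp was kept as shared. Of 78306 regions in Veh 1, 39888 (50.9%) were shared, and of 57493 regions in Veh 2, 43497 (75.7%) were shared. These 83385 shared regions stand against 183538 regions in all 4 ChIP libraries of the series, and they formed 31176 separate loci once the 2 lists were joined. The shared regions held most of the covered sequence, 80.4% of the bases in Veh 1 and 92.0% in Veh 2. Regions found in only 1 library were narrower, with a median width of 449 bp in Veh 1 and 420 bp in Veh 2, against 1104 bp and 866 bp for the shared regions. Their median fold enrichment, the ratio of the signal at the summit to the local background, was 3.25 and 3.23, against 3.99 and 3.74. Read totals are not part of the lists, and how far each library exceeded that minimum is unknown.

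RNAPII transcribes all protein-coding genes and many noncoding ones. It initiates at the transcription start site (TSS), pauses shortly downstream under the control of the factors DSIF and NELF, and is released into the gene body when the kinase P-TEFb (CDK9 with cyclin T) phosphorylates these factors and the RNAPII CTD. It then continues past the transcription end site (TES) before it leaves the template, so that a ChIP profile shows where polymerases dwell, at the promoter, along the body or beyond the gene end. Most mammalian promoters lie in CpG-rich DNA, and a smaller group, with the replication-dependent histone genes among them, has a TATA box. Luminal breast cancer cells are marked by the transcription factors FOXA1, GATA3 and SPDEF and by keratins 8, 18 and 19.

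The promoters of 3 genes show the kinds of sequence found under the strongest regions and at a lineage gene. XBP1 and H3C7 lie under 2 of the most enriched regions of both libraries, and GATA3 had the strongest region of the defining lineage genes. Each run below gives 250 bases before to 50 bases from the TSS of the Ensembl canonical isoform, 5′ to 3′ on the strand of the gene, read from GRCh37. The runs lie at chr22:29196508-29196807 (minus strand), chr6:26250814-26251113 (minus strand) and chr10:8096401-8096700 (plus strand). Capitals mark 3 motifs, searched on both strands of each promoter. The first, known for binding the TATA-binding protein, was taken as the letters TATAAA. The second is named the CCAAT box after its own letters and is known for binding the factor NF-Y. The third, known for binding Sp1, was taken as the letters GGGCGG and is called the GC box.
XBP1: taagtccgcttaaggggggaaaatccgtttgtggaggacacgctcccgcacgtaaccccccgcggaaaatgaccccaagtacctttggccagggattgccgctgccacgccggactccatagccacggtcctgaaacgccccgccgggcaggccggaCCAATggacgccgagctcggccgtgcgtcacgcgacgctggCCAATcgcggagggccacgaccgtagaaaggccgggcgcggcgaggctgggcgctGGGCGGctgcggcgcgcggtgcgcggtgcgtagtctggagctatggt
H3C7: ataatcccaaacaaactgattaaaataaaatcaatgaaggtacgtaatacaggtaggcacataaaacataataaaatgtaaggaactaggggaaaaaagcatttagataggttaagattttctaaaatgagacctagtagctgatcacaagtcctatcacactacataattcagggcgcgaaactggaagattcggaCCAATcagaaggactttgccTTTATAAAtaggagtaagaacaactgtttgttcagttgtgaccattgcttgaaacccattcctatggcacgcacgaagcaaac
GATA3: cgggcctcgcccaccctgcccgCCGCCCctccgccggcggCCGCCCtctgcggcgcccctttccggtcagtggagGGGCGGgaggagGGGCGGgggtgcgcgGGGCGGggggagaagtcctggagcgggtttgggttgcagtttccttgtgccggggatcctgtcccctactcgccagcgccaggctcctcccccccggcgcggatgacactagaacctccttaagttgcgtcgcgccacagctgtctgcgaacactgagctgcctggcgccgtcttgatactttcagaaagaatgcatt
The XBP1 promoter held CCAAT at −93 and −52 and GGGCGG at 4, counted from the TSS as position 1 to the first base of the match. The H3C7 promoter held TATAAA at −31, an overlapping match on the other strand at −33, and CCAAT at −53. The GATA3 promoter held 5 GC boxes between −228 and −148. GC content was 68.7% at XBP1 and 69.3% at GATA3, but 36.7% at H3C7.

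Shared regions were placed on the genes of GENCODE release 44 in GRCh37 coordinates, with the longest isoform of each of 19794 protein-coding genes. A promoter was taken as 300 bp either side of the TSS. A region that overlapped a promoter by at least 1 bp was placed there with its whole width, including bases far from the TSS. Wide regions are more likely to overlap a promoter, so that the width and base share of this class are partly built in. Regions at protein-coding promoters made up 21.1% of the shared regions in Veh 1 and 19.2% in Veh 2, whereas regions inside protein-coding genes away from any promoter made up 58.4% and 60.0%. Promoter regions were wider, with a median of 2794 bp and 2886 bp against 828 bp and 661 bp in gene bodies, and they held a larger part of the covered bases, 42.2% ± 1.58 (SD, n = 2) against 39.3% ± 1.43. Regions at promoters of noncoding and other genes took 9.02% ± 0.484 of the bases. A further 4.97% ± 0.0603 of the regions lay outside all genes and more than 5 kb from the end of a protein-coding gene. The share of regions at promoters depended on how regions were defined, with 38.7% where the overlap had to reach 50% of both regions, 33.5% at a −log10 q-value of at least 5, 36.99% after regions within 1 kb were merged, and 13.1% over all regions, 10.96% in Veh 1 and 15.2% in Veh 2.

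The most enriched regions sat at promoters. Among the 100 regions with the highest fold enrichment, 72 in Veh 1 and 76 in Veh 2 overlapped a protein-coding promoter, and 22 and 19 overlapped the promoter of another gene. For regions at protein-coding promoters the median fold enrichment was 5.78 in Veh 1 and 8.01 in Veh 2, against 3.69 and 3.45 in gene bodies. Each region carries the value of its strongest summit, and the wider promoter regions can hold more summits to draw from. That summit can also lie away from the promoter. A shared region was present at the promoter of 9973 protein-coding genes, 50.4% of all, and anywhere in the span from TSS to TES of 11396 genes, 57.6% of all. The number of genes with a shared promoter region ranged only from 8825 to 10388 over the alternatives tried, unlike the share of regions. Occupied promoters were least frequent among genes under 5 kb, at 36.2%, and most frequent among genes of 20 to 100 kb, at 57.8%.

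The strongest summit of an occupied promoter lay close to the TSS. A region had to overlap the promoter to be counted, so that this closeness is partly built in. At canonical isoforms the median width of these regions was 3001 bp in Veh 1 and 3086 bp in Veh 2. Over 10262 promoters of canonical isoforms, the median summit position was 13 bp after the TSS in Veh 1 and 11 bp after it in Veh 2. The middle 50% of summits ran from −216 to 163 bp in Veh 1 and from −158 to 147 bp in Veh 2. Summits within 1 kb of the TSS made up 81.3% in Veh 1 and 89.95% in Veh 2. The first 150 bp after the TSS, the stretch that includes the known pause position, held 26.5% and 28.0%. The 150 bp before the TSS held 19.1% and 21.8%, so that summits fell on both sides of the TSS.

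Occupied promoters differed from the others in base composition. The median GC content over the 300 bases around the TSS was 66.3% at the 10262 promoters with a shared region and 58.7% at the 9532 without one. The ratio of observed to expected CpG was 0.873 and 0.461. The share of promoters with a shared region was 4.11% where GC content was under 40%, 16.2% from 40 to 50%, 47.2% from 50 to 60%, 65.2% from 60 to 70% and 61.9% at 70% or more. A TATA box was found in 4.69% of occupied promoters, in 15.1% of the others and in 9.73% of all protein-coding promoters. The GC box showed the reverse order, with 76.1%, 45.4% and 61.3%, and it is itself made of G and C. The letters TATAAA are all A and T and were counted anywhere in the 300 bases, so that their share can also move with base composition. The CCAAT box was found in 38.3%, 33.4% and 36.0%. ChIP recovery and read mapping also move with GC content, and their part in these shares was not tested.

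Among occupied promoters, TATA boxes were more common where the region was strongest. Among the 1026 occupied promoters with the strongest regions, 125 (12.2%) held TATAAA, and among the 1026 with the weakest regions 36 (3.51%). Histone genes accounted for part of this, since 8.80% of 966 promoters held it once they were left out. The median GC content was 62.7% at the strongest, 63.3% at the strongest without histone genes, and 69.0% at the weakest. The part of base composition in these TATA shares was not tested. Of 64 replication-dependent histone promoters, 43 (67.2%) held a TATA box and 55 (85.9%) a CCAAT box, and of 28 immediate-early promoters 9 (32.1%) held a TATA box.

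Along genes with an occupied promoter, occupancy was high at the start, low in the body and raised again past the end. These averages were taken over 1445 genes of at least 20 kb with a shared promoter region and no other protein-coding gene within 10 kb before the TSS, inside the span or within 20 kb after the TES. The first kb after the TSS was covered to 86.7% ± 3.54 (SD, n = 2), the second to 48.0% ± 4.27, the third to 20.1% ± 1.10 and the fifth to 8.31% ± 0.0440. The kb before the TSS was covered to 78.4% ± 2.96 and the one before that to 27.9% ± 1.33, so that occupancy extended to both sides of the TSS. A region at the promoter chose these genes, so that the high coverage around the TSS follows in part from that choice. The remaining span, beyond the first 2 kb, was divided into 10 equal parts, of which parts 2 to 9 were covered to between 6.21% and 7.88%, and part 10 to 10.2% ± 0.883. The first kb after the TES reached 17.6% ± 1.30, the second 22.3% ± 1.23 and the third 22.3% ± 2.19, and the level fell to 4.52% ± 0.750 in kb 10 and 2.57% ± 0.218 in kb 20. The rise past the TES was larger than the spread between libraries, and it was present in both. In 2110 isolated genes of the same length without a shared promoter region, no bin had a mean above 2.20%. Their low values around the TSS follow from the lack of a promoter region that chose them.

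A subset of these genes was covered along its whole length. The 71 isolated genes that were at least 50% covered in both libraries had 99.7% ± 0.0199 of the first kb covered, and between 76.5% and 83.0% in each of the 10 parts of the remaining span, which is the measure that chose them. Past the TES they were covered to 90.6% ± 2.58 in the first kb, 92.9% ± 0.868 in the second and still 25.9% ± 4.91 in kb 10. Bases past the TES did not enter the choice. A region that fills the span can run past its end, however, so that this coverage is not independent of the choice.

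**Figure D1:**
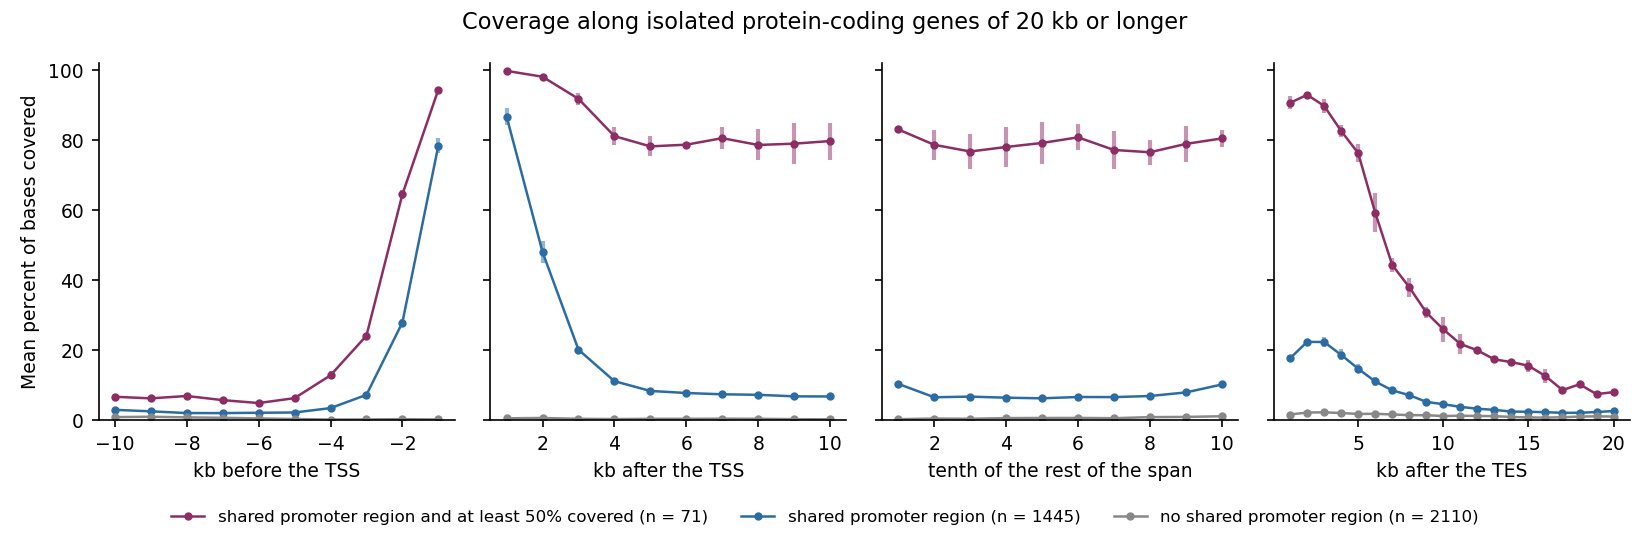
Mean percent of bases covered per kb before the TSS, per kb after the TSS, for 10 equal parts of the span that follows the first 2 kb, and per kb after the TES, for 3 sets of isolated genes of 20 kb or longer; points are means of Veh 1 and Veh 2 and vertical bars join the values of both. Genes with a shared promoter region fall from 86.7% in the first kb to about 6% in the body and rise to 22.3% past the TES, while those at least 50% covered stay above 76% to the TES.

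The percent of the gene span covered by shared regions was the first of 2 rankings. Over the 11396 genes with a shared region its median was 11.3% in Veh 1 and 10.9% in Veh 2. It was closely tied to gene length, with a Spearman coefficient of −0.75 across genes, since a promoter region of a given width fills more of a short gene. Among genes with a shared promoter region, the median was 100% in both libraries under 5 kb, 37.8% and 33.6% from 5 to 20 kb, 6.15% and 6.06% from 20 to 100 kb, and 0.994% and 1.08% at 100 kb or more. At least 50% of the span was covered in both libraries in 2458 genes, 12.4% of all, and at least 90% in 1221 genes, 6.17% of all. Of the latter, 641 were under 5 kb, 491 were from 5 to 20 kb, 88 from 20 to 100 kb and 1 was longer.

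The second ranking, by the fold enrichment of the strongest shared region of each gene within its own list, ordered the genes differently. Percent covered had a Spearman coefficient of 0.98 between Veh 1 and Veh 2 across the 11396 genes, with a median difference of 1.18 percentage points and 87.2% of genes within 10 points. The coefficient for fold enrichment was 0.65. These values are not on an equal footing, since coverage counts only bases in regions that overlap the other library and rests on gene length, which is the same in both. Among genes of at least 20 kb, 450 of the 500 with the highest coverage in Veh 1 were also among the 500 of Veh 2, and 199 of the 500 with the highest fold enrichment. By the means of both libraries, 166 genes of at least 20 kb stood among both the 500 most covered and the 500 strongest. Genes can share a region and are not independent, so these coefficients are descriptions.

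**Figure D2:**
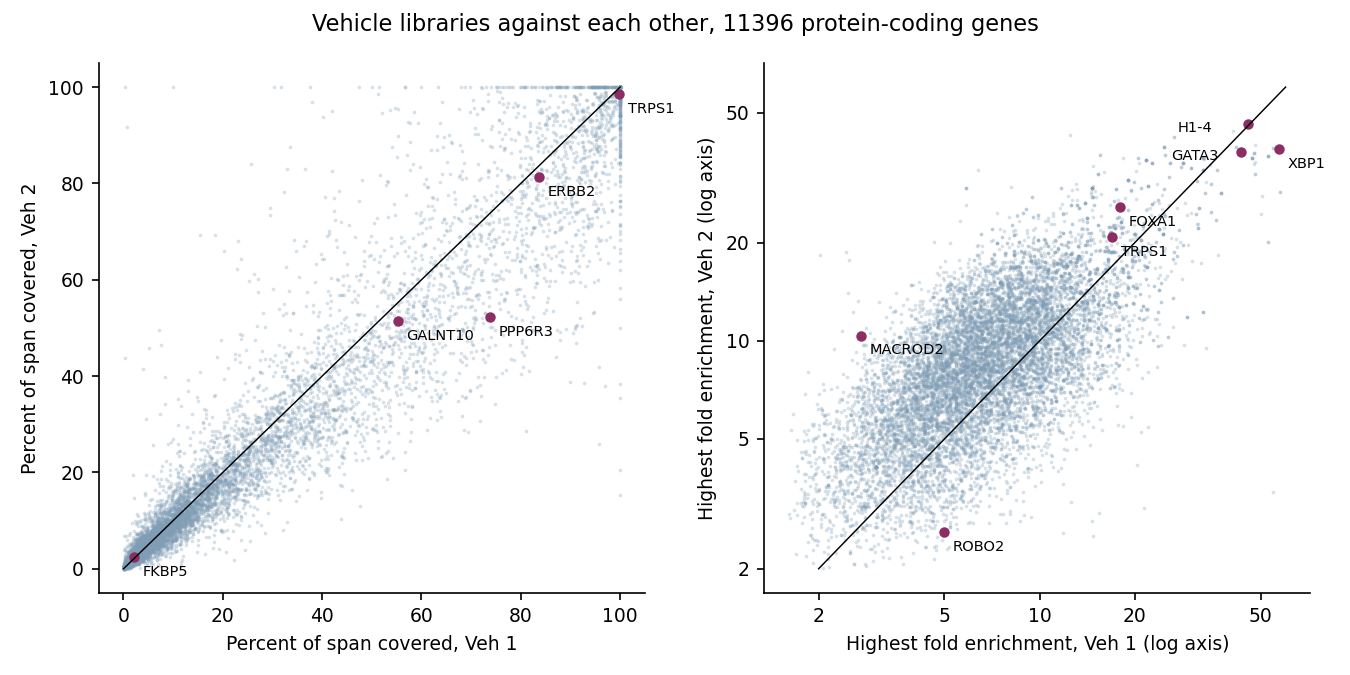
Each point is 1 of 11396 protein-coding genes with a shared region in both vehicle libraries; left, percent of span covered in Veh 1 and Veh 2; right, highest fold enrichment on log axes; the line marks equal values and named genes are drawn larger. Points lie near the line for coverage and spread widely for fold enrichment, where MACROD2 had 2.73 in Veh 1 and 10.4 in Veh 2.

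The genes of at least 20 kb with the highest coverage were covered to 100% in both libraries. Ordered by length, the first 10 were HNRNPC, EHF, RBM39, EWSR1, CLCA2, RBM4, PCBP2, TFAP2B, TNKS1BP1 and EIF2S2. The regions over RBM39, EWSR1, RBM4, PCBP2, TNKS1BP1 and EIF2S2 also reached neighbouring genes, such as SSRP1 beside TNKS1BP1 and RALY beside EIF2S2. Their signal cannot be assigned to 1 gene of each group. HNRNPC, RBM39, EWSR1, RBM4 and PCBP2 encode RNA-binding proteins of splicing and mRNA metabolism, and EIF2S2 encodes a subunit of a translation initiation factor. EHF is an epithelial ETS transcription factor, and TFAP2B an AP-2 transcription factor. HNRNPC (chr14:21677295-21737653, 60359 bp) lay inside a single region of 76023 bp in Veh 1 and of 75891 bp in Veh 2. Its strongest summit had a fold enrichment of 27.7 and 20.1, rank 59 of 39888 regions and rank 275 of 43497.

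Some long genes were also broadly covered. TRPS1 (chr8:116420724-116681202, 260479 bp), a GATA-type transcription factor of breast epithelium, was the only gene of 100 kb or more that was at least 90% covered, with 99.8% and 98.6%. It held the widest shared region of all, 174854 bp with 273 summits in Veh 1. GALNT10, which encodes an O-glycosylation enzyme, had 55.2% and 51.4%. ASPH, which encodes a hydroxylase of the endoplasmic reticulum, had 66.5% and 65.8%. PPP6R3, a regulatory subunit of protein phosphatase 6, differed most between the libraries among these genes, with 73.8% and 52.2%. Further genes among the 10 longest that were at least 50% covered were ARFGEF3, RFX7, the readthrough gene P3R3URF-PIK3R3 and BRWD1, from 56.9% to 92.6%.

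Wide regions were not confined to single genes. Regions of 10 kb or more numbered 1186 in Veh 1 and 957 in Veh 2 and held 23.96% and 19.96% of the shared bases. The widest in Veh 2, 88819 bp on chromosome 11, ran over 12 genes, from TALDO1 to TSPAN4, with RPLP2 and POLR2L among them. A region on chromosome 22 of 58777 bp in Veh 1 and 85744 bp in Veh 2 overlapped no protein-coding gene. MLPH, which encodes melanophilin and is known as a luminal gene, lay under a region of 62495 bp and 61833 bp.

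Other long genes had an occupied promoter and almost no coverage. DLG2, a synaptic scaffold gene of 2173304 bp, was covered to 0.0420% in Veh 1 and 0.0400% in Veh 2. Its region also reached TMEM126B, and that of MACROD2 also reached SEL1L2, so that the signal cannot be assigned to 1 gene of each pair. MACROD2, CTNNA3, ROBO2 and FHIT, next in length, were covered to between 0.0258% and 0.415%. Their promoter regions were of uneven strength between the libraries, as for MACROD2, with a fold enrichment of 2.73 in Veh 1 and 10.4 in Veh 2, and for ROBO2, with 4.998 and 2.591.

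Among protein-coding genes, 2 regions shared the first place by mean rank of fold enrichment. The first of them spans the start of XBP1, a transcription factor of the unfolded protein response and a gene of luminal cells, together with CCDC117. It measured 18142 bp in Veh 1 and 17610 bp in Veh 2, and its fold enrichment of 57.2 and 38.6 stood at rank 2 and rank 12. The other, at H2BC9 and H3C7, stood at rank 3 and rank 11. XBP1 was covered to 100% in both libraries. GATA3 (chr10:8096651-8117161), the master transcription factor of the luminal lineage, had 43.5 and 37.9, at rank 15 and rank 13, inside a region of 36702 bp and 37060 bp. A region at MRPS18B and PPP1R10 on chromosome 6 had 41.8 and 39.3. The remaining 7 of the 10, H2BC9 with H3C7 among them, were regions of the histone gene clusters on chromosome 6.

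Replication-dependent histone genes supply histones during S phase and their mRNAs lack a poly(A) tail. Of 64 such genes, 60 had a shared promoter region and 57 were at least 50% covered, against 50.4% and 12.4% of all protein-coding genes. They are very short, with a median span of 496.5 bp against 24890.5 bp over all, so that a promoter region alone can fill the span. The median rank of their strongest region was 32 in Veh 1 and 25 in Veh 2. H1-4, a linker histone gene, shared its region with H2BC5 and had a fold enrichment of 45.7 and 46.4. H4C8 had 48.0 and 39.8, and H2BC9 with H3C7 had 54.7 and 39.1. The highest fold enrichment of Veh 1, 57.8, lay at H2BC4 and H2AC6, where Veh 2 had 28.6. The 4 histone genes without a shared region were H1-1, H1-6, H2AC1 and H2BC1, of which H1-6, H2AC1 and H2BC1 are known as testis forms, and they were named after their values were seen. Genes of a cluster lie close enough to share regions, so that the 60 genes are not 60 separate measurements.

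The label of the line was compared with lineage markers. Of 32 luminal epithelial genes, 27 had a shared promoter region and 22 were at least 50% covered, against 50.4% and 12.4% of all protein-coding genes. Their median coverage was 95.6% in Veh 1 and 89.3% in Veh 2, against 1.30% and 1.42% over all protein-coding genes. FOXA1 (chr14:38058757-38064454), a pioneer factor of luminal cells, was covered to 100% in both libraries, with a fold enrichment of 17.9 and 25.8. SPDEF, an ETS factor of luminal cells, was also covered to 100%, with 18.2 and 16.7. So were TFAP2A, TFAP2B, KRT7, KRT18, KRT19, CLDN3, CLDN7 and FASN. ERBB2 (HER2) was covered to 83.7% and 81.3%, and ERBB3, its heterodimer partner, to 97.3% and 92.7%. CDH1 (E-cadherin) had 91.3% and 74.0%. The strongest regions of FOXA1 (TTC6), SPDEF (PACSIN1), KRT7 (KRT86), KRT18 (KRT8), KRT19 (KRT15), CLDN7 (ELP5), FASN (CCDC57) and ERBB2 (MIEN1) also reached the gene in brackets. Their signal cannot be assigned to either gene of a pair alone.

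KRT8 was covered to 24.6% and 22.4% of a longest isoform of 52656 bp, but to 89.9% and 77.2% of its canonical isoform of 7886 bp. CLDN4, AGR2 and EPCAM had no shared promoter region at the start of the longest isoform and had one at that of the canonical isoform. The lowest members of the list were MUC1, an apical mucin, and PIP, a prolactin-inducible apocrine gene, with 0% in both libraries, and ALCAM, with 1.51% and 1.46%. FKBP5, a gene of 154999 bp for a co-chaperone of steroid receptors, had a shared promoter region and 2.17% and 2.45% of its span covered.

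The estrogen receptor gene ESR1 and the progesterone receptor gene PGR had no shared region anywhere in the span. Basal and myoepithelial genes were mostly without regions, in that 16 of 20 had none and 3 had a shared promoter region. Over all protein-coding genes, 57.6% had a shared region and 50.4% a shared promoter region. KRT5, KRT14, KRT17, EGFR and SOX10 stood at 0% in both libraries. TP63, the master regulator of basal cells, had no promoter region and 2.86% and 2.57% of its span covered by regions inside the gene. The exceptions were TAGLN, an actin-binding protein of smooth muscle, at 70.9% and 75.2%, CDH3 at 21.2% and 17.2%, and KRT15 at 25.9% and 19.3%, whose region was that of its neighbour KRT19. VIM (vimentin) stood at 0%.

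Markers of other cell types mostly lacked a shared promoter region, which 50.4% of all protein-coding genes had. Of 18 fibroblast and mesenchymal genes 1 had a shared promoter region (ZEB1), of 16 immune genes none, of 9 endothelial genes 2 (CLDN5 and ESAM), and of 24 neuronal, hepatic and muscle genes 1 (SLC17A7). CLDN5, a claudin of endothelial tight junctions, was covered to 90.7% and 100%. GRIN1, a subunit gene of the NMDA receptor, had no promoter region and was covered to 29.2% and 42.1%, with its strongest region shared with 3 neighbouring genes. F2 (prothrombin) was covered to 15.02% and 4.957% and COL1A1, a fibrillar collagen gene, to 7.68% and 8.54%, by regions inside the gene. The immune genes with a region were CSF1R, at 5.44% and 1.56%, and CD8A, at 2.51% and 2.47%. PTPRC, CD3E, CD14, VWF and CDH5 stood at 0% in both libraries. None of 390 olfactory receptor genes, which are silent outside the nose, had a shared region. The absence of a region says that none passed the authors' peak calling in both libraries, which depth limits to an unknown degree.

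Genes in constant use were covered over most of their span. Of 26 housekeeping genes, 23 had a shared promoter region and 20 were at least 50% covered, with a median of 100% in both libraries, against 50.4% and 12.4% of all protein-coding genes and medians of 1.30% and 1.42%. The listed genes were shorter, with a median span of 8009 bp against 24890.5 bp over all, and coverage falls with length. ENO1 (enolase) and EEF2 (elongation factor 2) were covered to 100%, with a fold enrichment of 16.4 and 16.2 at ENO1 and of 10.8 and 13.6 at EEF2. TUBB (beta tubulin) was also covered to 100%, with 34.7 and 24.9. At the lower end TBP, the TATA-binding protein gene, had 14.8% and 13.7%, and PGK1, at a longest isoform of 216211 bp, had 3.34% and 3.81%, but 31.7% and 32.4% of its canonical isoform of 25048 bp. HPRT1, a purine salvage gene on the X chromosome, had no shared region. Cytosolic ribosomal protein genes were similar, with 77 of 79 promoters occupied and 74 genes at least 50% covered. Proteasome subunit genes were occupied at 39 of 48 promoters, with a median coverage of 44.2% and 28.2%. ZNF zinc finger genes were occupied at 375 of 508 promoters but covered to a median of 5.80% and 5.54%.

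Proliferation genes had 25 of 26 promoters occupied, and 15 were at least 50% covered, against 50.4% and 12.4% of all protein-coding genes. Their median coverage was 63.2% and 59.4%, against 1.30% and 1.42%. RRM2, a ribonucleotide reductase subunit, and MCM7, a subunit of the replicative helicase, were covered to 100% in both libraries. E2F1, a transcription factor of S phase entry, had 100% and 97.1%. BUB1, a spindle checkpoint kinase, had 3.92% and 3.05%, and CENPE, a mitotic kinesin of 93097 bp, had 0.894% and 1.11%. CCNE1 (cyclin E1) had no shared region.

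Immediate-early genes, which respond to growth factors and stress within minutes, were unevenly occupied. Of 28, 21 had a shared promoter region and 14 were at least 50% covered, with a median of 58.7% in each library, and 50.4% and 12.4% are the shares over all protein-coding genes. These genes are also short, with a median span of 4353 bp. ZFP36L1, DUSP6 and IER2 were covered to 100% in both, and so was IER3, whose region had a fold enrichment of 34.7 and 30.2 and was in Veh 1 the region that also holds TUBB. MYC was covered to 67.1% and 57.3%. FOS was covered to 21.2% and 13.6%, with a fold enrichment of 2.71 and 3.91. EGR2, EGR3 and CCN2 had no shared region.

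The pausing and elongation machinery itself was occupied at 31 of 32 promoters, and 8 of its genes were at least 50% covered, against 50.4% and 12.4% of all protein-coding genes. Their median coverage was 17.0% and 17.4%, against 1.30% and 1.42%. MEPCE and HEXIM1, which with 7SK RNA hold P-TEFb inactive, were covered to 100% in both libraries. HEXIM1 had a fold enrichment of 36.3 and 33.5, rank 22 and rank 37, and MEPCE had 24.7 and 39.4. PAF1 and ELL3 were also covered to 100%. The regions of these genes also reached others, PPP1R35 and ZCWPW1 for MEPCE, HEXIM2 for HEXIM1, SAMD4B for PAF1 and PDIA3 for ELL3. Their signal cannot be assigned to 1 gene of each group. CDK9 was covered to 79.5% and 90.7%, and its cyclin partner CCNT1 to 18.5% and 22.0%. POLR2A, the gene of the largest RNAPII subunit, had 45.6% and 33.2%. ELL had the lowest coverage, 1.53% and 1.43%, followed by CTR9 with 2.07% and 2.75% and CDK13 with 2.69% and 2.66%.

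Lipid synthesis genes were occupied at 21 of 24 promoters, and 9 were at least 50% covered, against 50.4% and 12.4% of all protein-coding genes. FASN (fatty acid synthase), SCD (stearoyl-CoA desaturase) and FDPS (farnesyl diphosphate synthase) were covered to 100% in both libraries. SREBF1, the transcription factor of fatty acid synthesis, had 80.3% and 77.1%. FADS2 had 1.41% and 1.97%, and ACACA, a gene of 325001 bp for acetyl-CoA carboxylase, had 1.45% and 1.63%. ELOVL5, a fatty acid elongase, had no shared region.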

How the data were processed

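RNAPII ChIP-seq of the 2 vehicle cultures was used. Per the methods and labels, alignment was to GRCh37 with Bowtie 2, and MACS2 at default settings called the peaks of each library against its own input (versions are not given in the sources used here). Each row of the deposited tables is a summit. Pileup, as the authors deposited it, is the fragment signal at the summit, in whole numbers in both vehicle lists. Fold enrichment, also from the authors' peak caller, is the ratio of summit signal to that expected from nearby background. The authors' p-value and q-value columns are on the −log10 scale, with a smallest −log10 q-value of 2.00, and region length was deposited in bp. A deeper library yields more weak and wider regions, so that region numbers and coverage depend on depth, of which only the minimum of 60000000 reads per sample is known.

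Rows with the same chromosome, start and end were joined into 1 region with its highest fold enrichment, which turned 178966 and 135500 rows into 78306 and 57493 regions. Coverage is the percent of bases from TSS to TES of the longest GENCODE isoform inside shared regions of a library. A region that overlaps several genes counts for each of them. Ranks order fold enrichment within a list, 1 being the highest. Genes named are the 10 of at least 20 kb with the highest mean coverage, the 10 best regions of protein-coding genes by mean rank, the 10 longest at least 50% covered, the 5 longest with an occupied promoter and at most 2% covered, the 10 widest regions of each library, the extremes of each list and 13 defining genes; others were chosen after their values were seen. The members and lists were chosen with earlier results of these data known. With 1 group and no comparison of treatments, no test was run, and errors are SDs over n = 2. Alternatives changed the overlap, q-value, number and merging of regions, the promoter width, the gene model, the use of shared regions and the library. The functions were tested on simulated regions counted base by base. Motifs were counted on both strands. Some genes and a promoter sequence that the rules name are not reported here. PECAM1 was not matched among the coding genes and the 4 input libraries were not used. Python 3.11.15, numpy 2.4.6, pandas 2.3.3 and matplotlib 3.10.9 were used.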

Additional observations from a re-analysis of the deposited data

How the results depend on the processing

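Counts of genes moved by less than 1.5 times under the alternatives tried. These were genes with a shared promoter region (9973; 8825 to 10388), genes with at least 1 shared region (11396; 10418 to 11865), genes at least 90% covered (1221; 869 to 1628) and list members with a shared promoter region (155; 141 to 162). Counts of regions moved more. The 83385 shared regions became 38212 with an overlap of 50% of both regions, 48135 at a −log10 q-value of at least 5 and 43263 after merging within 1 kb. The share of regions at promoters, 20.2%, became 38.7%, 33.5% and 36.99% under the same alternatives, 22.5% with equal numbers of regions, 21.8% with a promoter of 1 kb and 13.1% over all regions, and ranged from 10.96% to 15.2% with 1 library left out. The median coverage, 11.1%, became 8.18% with the stricter overlap, 9.73% with the stricter q-value, 14.0% after merging and 14.4% over all regions, and ranged from 11.8% to 15.4% with 1 library left out. The rank correlation of fold enrichment, 0.65, was 0.64 with the stricter overlap, 0.63 with the stricter q-value, 0.64 with equal numbers of regions and 0.66 with whole gene records. Of the 35 genes named by the 4 rankings, 18 were named again after merging, and from 19 to 29 with 1 library left out. The causes were not tested, beyond the fewer regions that the stricter settings keep by construction. The canonical isoform was added as an alternative after the data were seen. Of the promoter counts of 16 lists, 1 moved by more than 1.5 times, or to or from 0, with the stricter overlap. The same held for 1 with a promoter of 1 kb, 1 with the canonical isoform, 1 without replicate 1 and 2 without replicate 2. Without replicate 2, 1 immune gene had a promoter region, and with a promoter of 1 kb 2 had one. Coverage of named genes moved beyond its SD for 15 genes and stayed within it for 31 after merging, and for 14 and 32 with the stricter overlap. No paired analysis was possible because only 1 group was described and no test was run. Depth beyond the stated minimum is unknown, so that an absent region can also be one below the detection limit, and 2 libraries give a spread but no firm error.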

Other observations

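Regions at noncoding RNA genes stood among the strongest of both libraries. The box C/D small nucleolar RNA gene SNORD3A (U3), which RNAPII transcribes, lay under the region with the highest fold enrichment of Veh 2, 54.1 at rank 1, and under one with 38.1 at rank 18 in Veh 1. The second U3 locus, SNORD3B-1 with SNORD3B-2, had 31.8 in Veh 1 and 43.2 in Veh 2. MALAT1, a nuclear long noncoding RNA, lay under regions with 46.3 and 42.1, of 19984 bp and 16482 bp. NEAT1, the architectural RNA of paraspeckles, had 36.7 and 34.6, under regions of 36217 bp and 32220 bp. The spliceosomal RNA genes RNU4-2 and RNU4-1 had 43.7 and 30.7, and RNU5A-1 had 31.3 and 29.6. These small RNA genes belong to families of near-identical copies, and how the authors placed reads that map to several copies is not given in the sources used here, so that their values are uncertain.

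A few of the strongest regions lay inside a protein-coding gene and away from the start of its longest isoform. At ANKRD30A, a breast differentiation antigen gene on chromosome 10, the region had a fold enrichment of 34.7 at rank 26 in Veh 1 and 34.5 at rank 31 in Veh 2, and the gene was covered to 68.0% and 66.3% without a shared region at the start of its longest isoform. At EGLN3, a prolyl hydroxylase gene of the hypoxia response, the strongest region had 17.7 in Veh 1 and 27.0 in Veh 2. It was 40163 bp wide in Veh 2. Of the span of 293779 bp of the longest isoform, 10.7% was covered in both libraries. Values for shorter isoforms of ANKRD30A and EGLN3 are not given here, so that such regions can lie at the start of one. These genes were chosen after their values were seen.

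The share of protein-coding genes with a shared promoter region varied between chromosomes. It was highest on chromosome 16, with 60.0%, and chromosome 14, with 59.3%, and lowest on chromosome X, with 36.0%, chromosome 21, with 40.4%, and chromosome 4, with 43.8%. Copy number and the make-up of gene families differ between chromosomes, and their part in these shares was not tested.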
